A study of Sus scrofa with 3 samples.

Results

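The steroid hormone receptor genes ESR1, ESR2, PGR, NR3C1, NR3C2 and GPER1 were followed in pig kidney. They were chosen by name, with earlier results of these data known, and all 6 were found among the 34570 genes of the count table. The kidneys came from Chinese Wuzhishan pigs of 6 to 7 months, a miniature breed, and every pig ate a diet rich in fat and cholesterol, so no library shows the kidney on a standard diet. The CMT pigs were castrated males given testosterone replacement, the CM pigs were castrated males without it, and the IM pigs were intact males. RNA of 3 pigs was pooled in equal amounts for each group and sequenced as 1 library, which gives 3 libraries from 9 pigs. A pool hides the spread between its pigs, so no difference has a replicate check and no p-value is given. The testosterone dose and the time since castration are not given in the sources used here.

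Steroid hormones cross the cell membrane and bind receptors that act in the nucleus as transcription factors. ESR1 and ESR2 encode the estrogen receptors alpha and beta, and PGR encodes the progesterone receptor, whose gene is itself a classical estrogen target in the reproductive tract. NR3C1 encodes the glucocorticoid receptor, present in most cells, and NR3C2 the mineralocorticoid receptor, which in the distal nephron mediates the action of aldosterone on sodium retention. GPER1 encodes a membrane receptor coupled to G proteins that responds to estrogens.

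Total counts were 13601475 in CMT, 18503537 in CM and 16459771 in IM. Levels are CPM, the usual depth-scaled counts, on library sizes scaled with TMM factors, which ranged only from 0.973 to 1.02. Of 15472 genes with a mean of at least 1 scaled CPM, ESR1, NR3C1 and NR3C2 were 3, while ESR2, PGR and GPER1 stayed below that level; ESR1 passed through its CMT and IM values, since CM alone lay under 1 CPM. Higher and lower are used of genes whose fold had an exact 95% interval lying wholly beyond 2-fold, and these are the called genes. That interval follows each fold in parentheses and covers counting error only, since each group has 1 pooled library. Sequenced reads are not independent molecules, so even the counting error may be understated. Defining markers of proximal tubule, loop of Henle, principal cell of the collecting duct and podocyte were present in every library and none of these lists had a called member in any comparison. UMOD, the urinary protein of the loop of Henle, whose symbol was looked up for a numbered identifier, had 105591 counts in CMT, 130566 in CM and 94626 in IM.

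**Figure D1:**
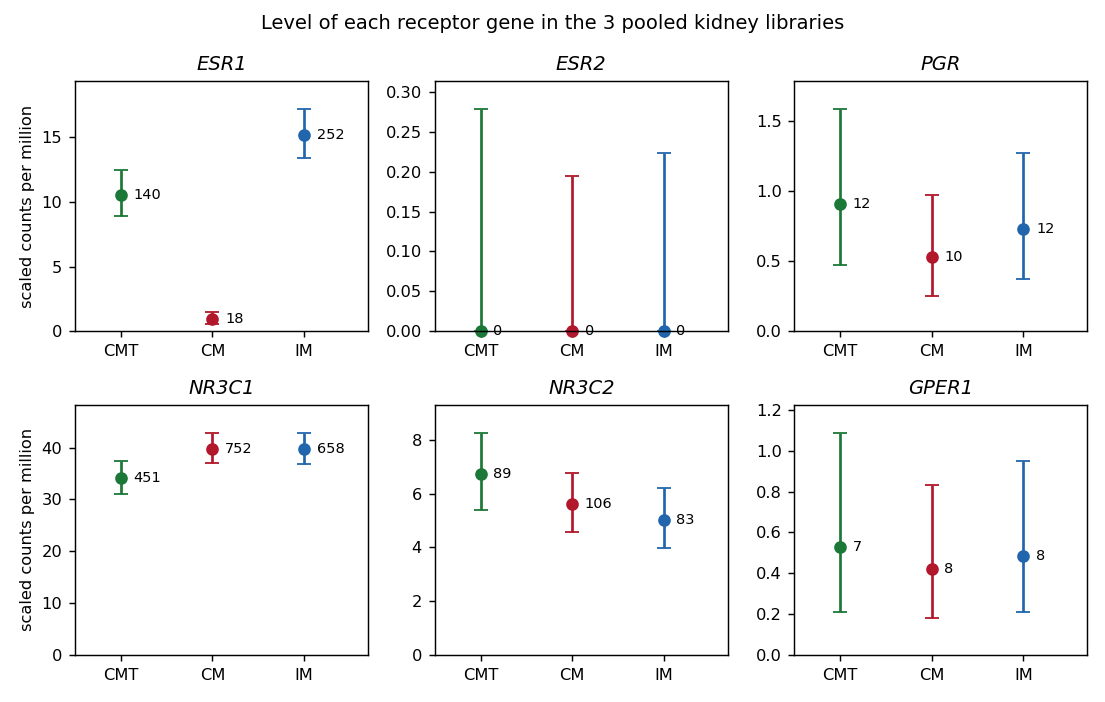
Scaled CPM of the 6 receptor genes in the CMT, CM and IM libraries, 1 panel per gene with its own axis from 0; points are the values of 1 pooled library each, bars are exact 95% Poisson intervals of the count and numbers are raw counts. ESR1 is at 10.6 CPM in CMT, 0.952 in CM and 15.2 in IM, and ESR2 is at 0 in all 3.

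ESR1 was the receptor gene with called differences. It gave 140 counts in CMT, 18 in CM and 252 in IM, which is 10.6, 0.952 and 15.2 scaled CPM in that order. The Poisson intervals of these levels, 8.90 to 12.5 in CMT, 0.564 to 1.5 in CM and 13.4 to 17.2 in IM, do not overlap. The ESR1 level of CM was 16.0-fold (9.91 to 27.4) below that of IM. It was the only 1 of the 3 compared receptor genes called lower in CM than in IM, where 1.52% of all compared genes were. Ranked by log2 fold (prior count of 2), ESR1 stood at -3.83 and was number 30 from the lowest of the 15472 genes.

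ESR1 was higher in CMT than in CM by 11.1-fold (6.78 to 19.3), a log2 fold of 3.31 and number 44 from the highest. It was again the only called receptor gene, in a comparison where 1.84% of compared genes were called higher. Both comparisons use the same CM library, so the low CM count enters each of them. Between CMT and IM the ratio of ESR1 was 0.695 (0.561 to 0.858), below 1 by more than counting error but short of the rule. None of the 3 compared receptor genes was called between CMT and IM, where 0.905% of compared genes were higher, 0.595% lower and 1.5% called either way. In bulk kidney RNA, fewer cells that express ESR1 and less ESR1 RNA per cell cannot be told apart.

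**Figure D2:**
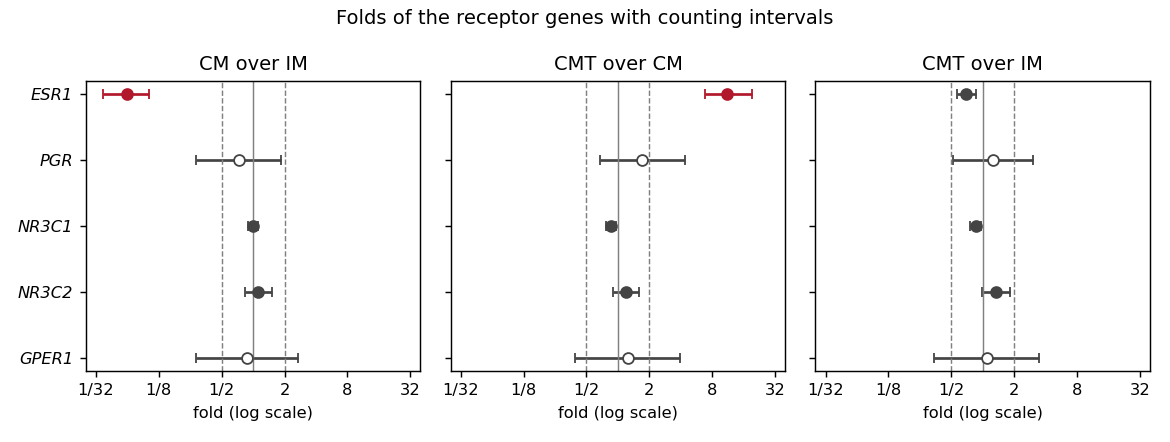
Fold of 5 receptor genes in CM over IM, CMT over CM and CMT over IM on a log axis; points are ratios of scaled counts, bars are exact 95% counting intervals, dashed lines mark 2-fold either way, red marks a called gene and open points mark genes below the level needed for a comparison. The ESR1 interval lies wholly beyond 2-fold in the first pair of panels, and the intervals of NR3C1 and NR3C2 lie within 2-fold in all 3.

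The other estrogen receptor gene, ESR2, had 0 counts in each library. The floor used for such a gene is 3 counts, or 0.227 CPM in the CMT library, 0.159 CPM in CM and 0.181 CPM in IM. The exact Poisson interval drawn in the plot of levels reaches somewhat higher, to 3.69 counts, or 0.279 CPM in CMT, 0.195 CPM in CM and 0.223 CPM in IM. ESR2 RNA was therefore not detectable at this depth, and no fold can be given.

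PGR was close to the limit of detection in every pool. It gave 12 counts in CMT, 10 in CM and 12 in IM, or 0.907, 0.529 and 0.725 scaled CPM, and the Poisson intervals of the 3 levels overlap. The ratio of CM to IM was 0.730 (0.282 to 1.84) and that of CMT to CM 1.71 (0.679 to 4.43), and that of CMT to IM was 1.25 (0.514 to 3.04). All 3 intervals include 1, so no difference was detectable at this depth. Against the 12 counts of IM, the PGR interval would have lain beyond 2-fold only at 1 count or fewer in CM, or at 53 or more. At 1 count or fewer the PGR mean would have stayed below 1 scaled CPM, so a lower call was not possible.

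NR3C1 levels lay close together in the 3 libraries. The glucocorticoid receptor gene gave 451 counts in CMT, 752 in CM and 658 in IM, or 34.1, 39.8 and 39.7 scaled CPM. The ratio of CM to IM was 1.0 (0.900 to 1.11), which bounds any NR3C1 difference between these libraries well within 2-fold. CMT stood somewhat below both, at 0.857 of the CM level (0.760 to 0.964) and 0.857 of the IM level (0.759 to 0.968). Both intervals exclude 1 and lie within 2-fold, and the spread between pigs was not measured.

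NR3C2 was not called in any comparison. It gave 89 counts in CMT, 106 in CM and 83 in IM. Its levels were 6.72, 5.61 and 5.01 scaled CPM in that order, with overlapping Poisson intervals. For the mineralocorticoid receptor gene the ratio of CM to IM was 1.12 (0.831 to 1.51), that of CMT to CM 1.20 (0.894 to 1.60) and that of CMT to IM 1.34 (0.983 to 1.83). All 3 intervals include 1 and exclude 2.

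GPER1, the membrane receptor, gave 7 counts in CMT, 8 in CM and 8 in IM. These are 0.529, 0.423 and 0.483 scaled CPM, with intervals that overlap almost entirely. Its ratio of CM to IM was 0.876 (0.287 to 2.68) and its ratio of CMT to CM 1.25 (0.386 to 3.94), and CMT stood to IM as 1.09 (0.338 to 3.45). The GPER1 counts bound only large differences: against 8 counts in IM no CM count, not even 0, would have been called lower, and 40 would have been needed to call it higher.

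Counts of different genes depend on transcript length, which is not given in the files, so the levels of the receptors were not ranked against each other. The ratio of counts of a pair of genes within 1 library can still be followed across libraries, and it does not depend on how libraries are scaled. For every 100 counts of NR3C1 there were 31.0 counts of ESR1 in CMT (25.5 to 37.6), 2.39 in CM (1.41 to 3.81) and 38.3 in IM (33.0 to 44.3). The CM interval lies below those of both other pools, and the CMT and IM intervals overlap. Per 100 counts of NR3C2 there were 157 counts of ESR1 in CMT (120 to 208), 17.0 in CM (9.69 to 28.2) and 304 in IM (236 to 394), and here the 3 intervals do not overlap. The ratio of the corticoid receptor genes to each other differed less, with 19.7 counts of NR3C2 per 100 of NR3C1 in CMT (15.5 to 24.8), 14.1 in CM (11.4 to 17.3) and 12.6 in IM (9.92 to 15.9).

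**Figure D3:**
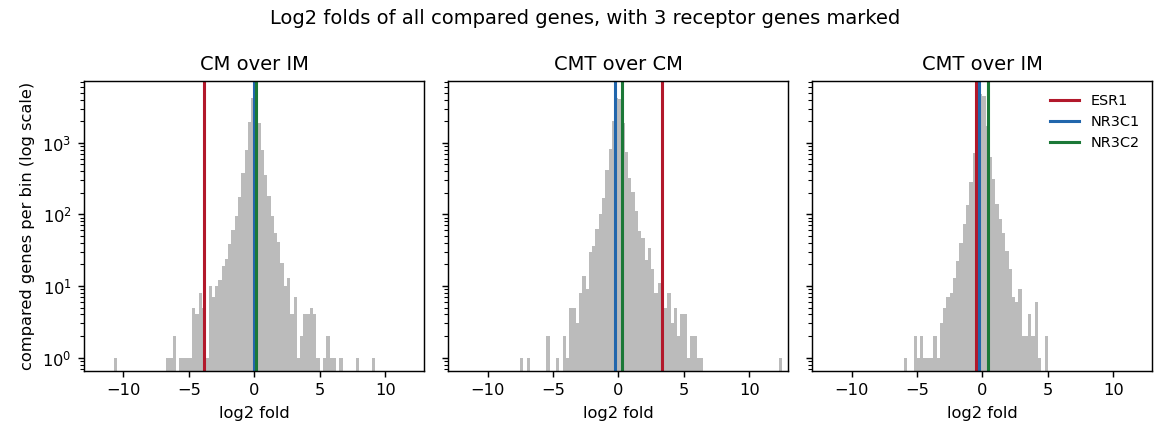
Number of compared genes (log axis) by log2 fold in bins of 0.25 for CM over IM, CMT over CM and CMT over IM, with vertical lines at the log2 folds of ESR1, NR3C1 and NR3C2. ESR1 lies in the far left tail at -3.83 in CM over IM and in the right tail at 3.31 in CMT over CM, and NR3C1 and NR3C2 lie near the centre.

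Membrane progestin receptors and their partners, taken as 1 list, showed no called gene. The list holds PGRMC1 and PGRMC2, haem-binding progesterone receptor membrane components, and members of the PAQR family. All 9 were in the table and 6 were compared, with median log2 folds of -0.10 in CM against IM and 0.01 in CMT against CM, beside -0.01 and -0.004 for all compared genes. PGRMC1 had 25344 counts in CMT, 28202 in CM and 34047 in IM, with a ratio of 0.726 (0.714 to 0.737) of CM to IM and 1.28 (1.26 to 1.31) of CMT to CM. PAQR5, a membrane progestin receptor, had 179, 361 and 188 counts in CMT, CM and IM, a ratio of 1.68 (1.41 to 2.02) of CM to IM. PAQR3 went the other way, with 298, 287 and 428 counts and a ratio of 0.587 (0.504 to 0.684) of CM to IM. PAQR7 and PAQR8 had at most 6 counts in a library. PGRMC1, PAQR3 and PAQR5 were named after their values were seen.

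Other members of the nuclear receptor superfamily gave calls in CMT against CM alone. Of 36 that were found, 29 were compared, and none was called in CM against IM, where the median log2 fold was 0.08. In CMT against CM 2 were higher (6.90% of 29, beside 1.84% of all compared genes) and 1 lower (3.45%, beside 1.11%), with a median of -0.03. NR1H4, the bile acid receptor FXR, had 921 counts in CMT, 536 in CM and 957 in IM and was higher in CMT than in CM by 2.45-fold (2.20 to 2.73). Its ratio of CM to IM, 0.491 (0.441 to 0.546), was short of the rule. NR0B2, the corepressor SHP and a known FXR target in liver, whose symbol was found by lookup, was higher in CMT than in CM by 3.86-fold (2.17 to 7.19) on 46 and 17 counts, with 29 in IM. PPARA, the receptor for fatty acids, was lower in CMT than in CM by 3.16-fold (2.46 to 4.11), with 76, 343 and 234 counts in CMT, CM and IM.

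Unliganded receptors are held ready for hormone by HSP90 and its cochaperones. Of 21 compared genes of this machinery none was called in any comparison. The median log2 fold was -0.23 in CM against IM, with 4 of 21 above 0, and 0.17 in CMT against CM, with 15 of 21 above 0; among all compared genes 7626 and 7624 of 15472 lay above 0. FKBP5, the immunophilin that lowers the hormone affinity of the glucocorticoid receptor and is induced through it, gave 1757 counts in CMT, 1286 in CM and 2137 in IM. Its ratio of CM to IM was 0.527 (0.491 to 0.565) and that of CMT to CM 1.95 (1.81 to 2.10). The gene also stands in the lists of glucocorticoid receptor targets and of androgen-responsive genes below, so it is not specific to glucocorticoids. FKBP5 had the lowest log2 fold of the chaperone list in CM against IM, at -0.92. DNAJB1, a heat shock cochaperone named after its values were seen, had the highest in CMT against CM, at 1.13.

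HSD11B2 inactivates cortisol in the distal nephron and so keeps the mineralocorticoid receptor open to aldosterone. It gave 7051 counts in CMT, 12241 in CM and 9595 in IM. The ratio of CM to IM was 1.12 (1.09 to 1.15) and that of CMT to CM 0.823 (0.799 to 0.847), both well within 2-fold.

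Coregulators, which the bound receptors recruit to chromatin, gave no call. None of 28 compared coactivators and none of 17 compared corepressors was called in any comparison, and their median log2 folds lay between 0.00 and 0.09. Among coactivators CREBBP, a histone acetyltransferase, stood farthest from 0 in CM against IM, at a log2 fold of 1.53, on only 80 counts in CM and 23 in IM. Among corepressors HDAC1, a histone deacetylase, did, at -1.03, on 265 counts in CM and 475 in IM. NRIP1, a corepressor that binds ESR1 and is also an estrogen target, gave 425 counts in CMT, 576 in CM and 604 in IM, a ratio of 0.835 (0.744 to 0.938) of CM to IM. CREBBP and HDAC1 were named after their values were seen.

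**Figure D4:**
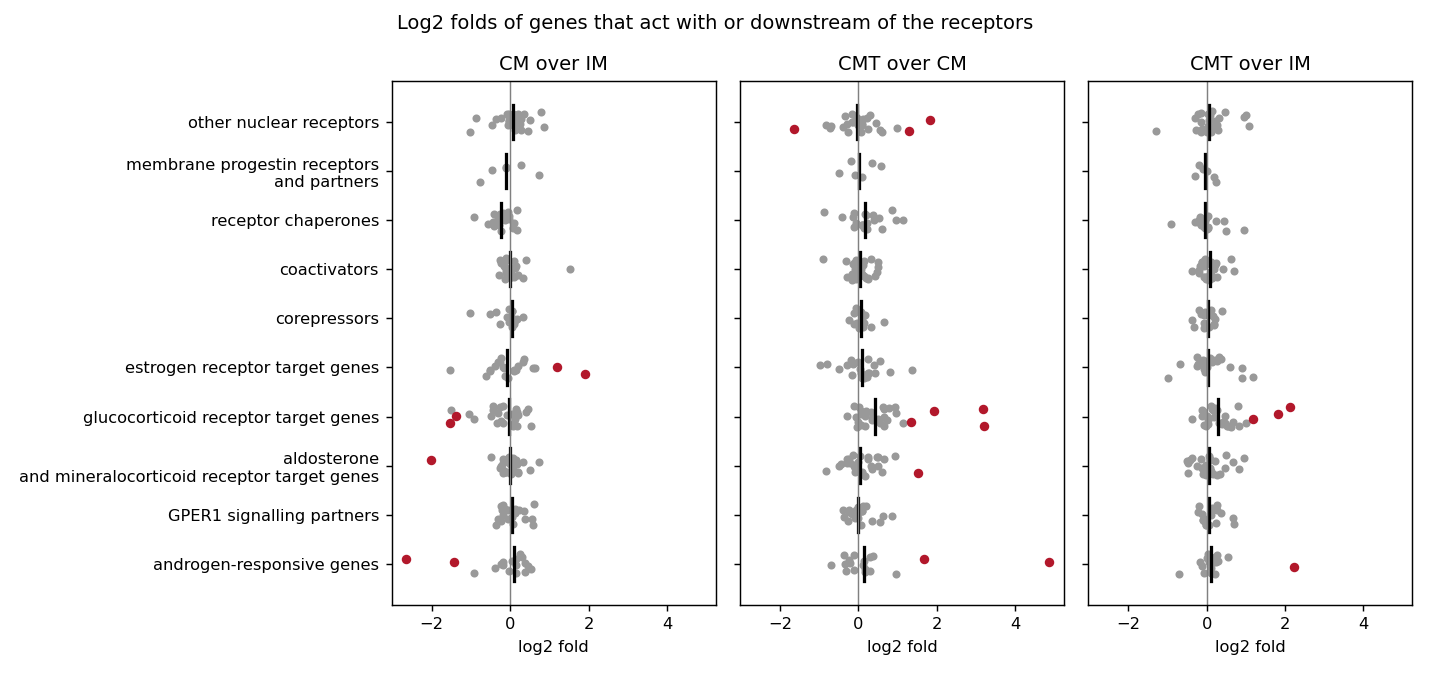
Log2 folds of the compared genes of 10 lists in CM over IM, CMT over CM and CMT over IM; each point is 1 gene, red points are called genes and black bars are list medians. In CMT over CM the median of the glucocorticoid receptor targets stands at 0.42, and no other list median exceeds 0.17.

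Genes known as estrogen receptor targets, mostly from human breast cancer cells, gave calls in CM against IM alone. Of 22 compared, 2 were higher in CM than in IM (9.09%, beside 1.2% of all compared genes) and none was lower, with a median log2 fold of -0.09. The higher ones were IGFBP4, which binds insulin-like growth factors (3.75-fold, 3.28 to 4.29), and the chemokine gene CXCL12 (2.28-fold, 2.09 to 2.49). IGFBP4 gave 403 counts in CMT, 1146 in CM and 268 in IM, so the pool lowest in ESR1 was highest in IGFBP4. The list had no common direction, with 10 of 22 above 0 in CM against IM. EGR3, named after its values were seen, had the lowest log2 fold there, at -1.54, and was not called. Its ratio of CM to IM was 0.301 (0.137 to 0.613) on 11 and 32 counts. In CMT against CM none of the 22 was called, and the median was 0.08. GREB1, a coactivator and one of the classical ESR1 targets, gave 118 counts in CMT, 64 in CM and 64 in IM. Its ratio of CM to IM was 0.876 (0.610 to 1.26), and that of CMT to CM, 2.63 (1.93 to 3.63), was just short of the rule.

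Glucocorticoid receptor targets gave calls in all 3 comparisons. In CM against IM 2 of 30 were lower (6.67%, beside 1.52% of all compared genes) and none was higher, with a median log2 fold of -0.03. In CMT against CM 4 were higher (13.3%, beside 1.84%) and none was lower, 25 of 30 lay above 0 and the median was 0.42. This list was drawn up with earlier results of these data known, so its shares are not independent evidence. Genes with many counts also have narrower intervals and pass the rule more easily. PDK4, an inhibitor of pyruvate oxidation, gave 4952 counts in CMT, 770 in CM and 1753 in IM, 2.60-fold (2.39 to 2.83) lower in CM than in IM and higher in CMT than in CM by 9.19-fold (8.51 to 9.92). GLUL, the glutamine synthetase gene, gave 10194, 3816 and 9668 counts in CMT, CM and IM. It was 2.89-fold (2.79 to 3.0) lower in CM than in IM and higher in CMT than in CM by 3.82-fold (3.68 to 3.96).

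ANGPTL4, a secreted lipase inhibitor, gave 4467 counts in CMT, 697 in CM and 1275 in IM. It was higher in CMT than in CM by 9.15-fold (8.45 to 9.93), and so was PCK1, an enzyme of gluconeogenesis named after its values were seen, by 2.54-fold (2.52 to 2.56). PDK4, ANGPTL4 and PCK1 are also controlled by PPAR-alpha or by fasting signals and are not specific to glucocorticoids. Against IM, 3 of the 30 were higher in CMT (10%, beside 0.905%) and none was lower. These were ANGPTL4 (4.38-fold, 4.12 to 4.67), PDK4 (3.53-fold, 3.35 to 3.73) and NFKBIA, an inhibitor of NF-kappa-B (2.29-fold, 2.09 to 2.52). TSC22D3, which encodes the glucocorticoid-induced leucine zipper protein and answers to the receptor in many tissues, gave 1983 counts in CMT, 1787 in CM and 2201 in IM. The ratio of TSC22D3 in CMT to CM was 1.58 (1.49 to 1.69), not called. The receptor gene NR3C1 itself, at 0.857 of the CM level in CMT, was not called.

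Targets of aldosterone and the mineralocorticoid receptor gave calls for SLC26A4 alone. Of 29 compared, 1 was lower in CM than in IM and 1 higher in CMT than in CM (3.45% each, beside 1.52% and 1.84% of all compared genes), with medians of -0.01 and 0.05, and none was called between CMT and IM. SLC26A4, the anion exchanger pendrin of intercalated cells, was the gene in both cases, with 396, 197 and 700 counts in CMT, CM and IM. It was 4.06-fold (3.46 to 4.78) lower in CM than in IM and higher in CMT than in CM by 2.87-fold (2.41 to 3.42). The summed level of 5 intercalated cell markers, SLC26A4 included, was 581 CPM in CMT, 863 in CM and 590 in IM, highest in CM. ATP6V1B1, a proton pump subunit, carried that sum. The 4 others together gave 168 CPM in CMT, 136 in CM and 157 in IM. They include SLC26A4, so the low CM value is not independent of that gene. The ratio of CM to IM was 1.23 (1.11 to 1.37) for ATP6V0D2, 1.07 (0.988 to 1.16) for SLC4A1 and 0.904 (0.757 to 1.08) for FOXI1. Their ratios of CMT to CM were 0.876 (0.782 to 0.980), 1.22 (1.12 to 1.32) and 1.20 (0.997 to 1.44) in that order, and none was called. The kinase gene SGK1, an early aldosterone target, gave 4576, 5182 and 4145 counts in CMT, CM and IM, or 346, 274 and 250 scaled CPM. Its ratio was 1.10 (1.05 to 1.14) of CM to IM, 1.26 (1.21 to 1.31) of CMT to CM and 1.38 (1.32 to 1.44) of CMT to IM. SCNN1A, the alpha subunit of the epithelial sodium channel, gave 2953, 3589 and 3562 counts, or 223, 190 and 215 scaled CPM. Its ratio was 0.883 (0.842 to 0.925) of CM to IM and 1.18 (1.12 to 1.23) of CMT to CM.

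None of 21 compared genes of GPER1 signalling, among them G protein subunits, adenylate cyclases and EGFR, was called in any comparison. Of 18 compared androgen-responsive genes, 2 were lower in CM than in IM and 2 higher in CMT than in CM (11.1% each, beside 1.52% and 1.84% of all compared genes), comparisons that share the CM library. In both cases these were ELL2, a transcription elongation factor, with 612, 271 and 639 counts in CMT, CM and IM, and HSD17B6, a hydroxysteroid dehydrogenase of androgen metabolism, with 1607, 76 and 428. HSD17B6 was 6.43-fold (5.03 to 8.32) lower in CM than in IM, higher in CMT than in CM by 30.2-fold (24.0 to 38.5) and higher in CMT than in IM by 4.70-fold (4.22 to 5.24). ELL2 was 2.69-fold (2.33 to 3.11) lower in CM than in IM and higher in CMT than in CM by 3.23-fold (2.79 to 3.74). All 10 lists were drawn up with earlier results of these data known, so their shares and directions are not independent evidence. Over all 10 lists, 7 of 214 distinct compared genes were called between CM and IM, 10 between CMT and CM and 4 between CMT and IM, beside 2.71%, 2.95% and 1.5% of all compared genes.

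The genes most like ESR1 were sought by the distance between pairs of log2 folds, CM over IM and CMT over CM, over the 3 libraries. Of all other compared genes 21 lay within a distance of 1, and 6 of these carried a symbol. The nearest were S100A11, a calcium-binding protein (distance 0.69; 235, 20 and 351 counts in CMT, CM and IM), and SPOP, a substrate adaptor of a ubiquitin ligase (0.74; 45, 7 and 77 counts). Next was TRDN (0.76; 89, 6 and 135 counts), a symbol found by lookup for an entry of type miscRNA, so its relation to the protein-coding gene is unknown. BVES, a membrane protein known from muscle (0.76; 534, 67 and 514 counts), and CTXN3 (0.77; 103, 8 and 86 counts) followed.

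ASB11, of a ubiquitin ligase adaptor family (0.88; 663, 94 and 654 counts), and AADAT, an aminotransferase of the kynurenine pathway (1.11; 27834, 4932 and 29481 counts), were also among the 8. LRCOL1 had 17, 0 and 58 counts and a distance of 1.06, which depends on the prior count. With the floor of 3 counts in place of the 0 in CM, it was 22.1-fold lower in CM than in IM and 8.09-fold higher in CMT than in CM. The exact intervals, computed with 0 counts, start lower, at 17.4-fold and 5.89-fold. All 8 were called lower in CM than in IM and higher in CMT than in CM, which choosing by nearness favours. None of the 8 was called between CMT and IM, like ESR1. The choice by nearness favours this too, since the CMT to IM fold follows from the pair of folds used.

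**Figure D5:**
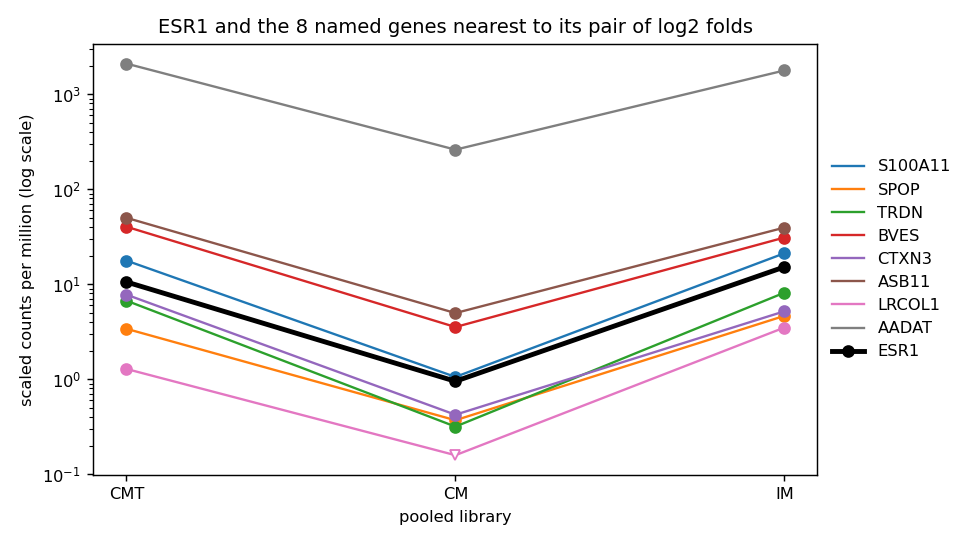
Scaled CPM (log axis) of ESR1, in black, and the 8 named genes nearest to its pair of log2 folds, in the CMT, CM and IM libraries; the open triangle marks LRCOL1 in CM, which had 0 counts and is drawn at the level of 3 counts. Levels of different genes are not per length; each line is lowest in CM.

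The summed markers of some other cell types were lowest in CM like ESR1, in part through single genes. Hepatocytes express ESR1, and ALB, a liver plasma protein gene, had 404 counts in CMT, 24 in CM and 1952 in IM, 92.9-fold (62.2 to 145) lower in CM than in IM. The summed level of 6 hepatocyte markers was 170 CPM in CMT, 91.0 in CM and 181 in IM, lowest in CM like ESR1. Without ALB the sum was 139 CPM in CMT, 89.7 in CM and 63.2 in IM, so the direction of CM against IM turned. APOB was at 5, 0 and 1 counts in CMT, CM and IM. Of its 5 compared members TTR and APOA1 were higher in CM than in IM and ALB was lower, while 3 were higher in CMT than in CM. The summed level of 6 lymphocyte and plasma cell markers was 32.8 CPM in CMT, 119 in CM and 26.4 in IM, opposite in direction to ESR1, and led by IGJ, which was 6.31-fold (5.55 to 7.20) higher in CM than in IM. Without IGJ that sum was 11.03 CPM in CMT, 17.4 in CM and 10.3 in IM.

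The summed level of the adipocyte markers was 10.3 CPM in CMT, 7.30 in CM and 14.6 in IM, lowest in CM like ESR1. Of these ADIPOQ and LEP were at 0 in all 3 libraries, and neither of the 2 compared was called. CIDEC, a lipid droplet protein, had a ratio of 0.489 (0.390 to 0.611) of CM to IM and 1.29 (0.992 to 1.68) of CMT to CM. PLIN1, another, had ratios of 0.670 (0.299 to 1.46) and 2.53 (1.23 to 5.43). Adrenal cortex markers summed to 1.13 CPM in CMT, 0.582 in CM and 1.03 in IM, with none compared and CYP17A1 at 0 in all 3. STAR, the cholesterol carrier of steroid synthesis, gave 13 counts in CMT, 3 in CM and 12 in IM. Its ratio was 0.219 (0.0397 to 0.811) of CM to IM and 6.19 (1.7 to 33.9) of CMT to CM. Without STAR the adrenal cortex sum was 0.151 CPM in CMT, 0.423 in CM and 0.302 in IM, highest in CM.

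Sums were also lowest in CM for distal convoluted tubule (111, 94.01 and 118 CPM in CMT, CM and IM), endothelium (379, 360.3 and 403) and urothelium (4.08, 3.17 and 4.83), without a called member. The stromal list had no called member either. Of 4 compared myeloid genes S100A12 was higher in CMT than in both others. The part of any of these cell types in the ESR1 difference was not tested.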

How the data were processed

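Total RNA was extracted from kidney with TRIzol and pooled within each group before Ion Torrent library preparation, per the labels' protocols. By contrast, Illumina sequencing in triplicate stands in the series' design text, and the platform was not settled here. The authors deposited raw counts per gene, 1 column per group. FastQC is named in the submitters' processing notes. The aligner, counter, strand setting, genome build and annotation are not given in the sources used here. Coordinates are therefore left out, overlapping and antisense genes could not be told apart, and reads of near-identical genes may be shared. An unnamed column with few values was not used (1 column).

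Symbols were looked up for 1556 of 19902 numbered identifiers with RefSeq's genes for Sscrofa11.1, 18 of them in the lists. TMM factors came from edgeR 4.0.16 in R 4.3.3, used only for scaling because with 1 library a group no spread can be estimated. Folds are ratios of scaled counts with Clopper-Pearson 95% intervals (scipy 1.17.1), and log2 folds use a prior count of 2. Genes with a mean of at least 1 scaled CPM were compared. The interval rule was tried on counts simulated with counting error only, which cannot show how it fares with spread between pigs. The text names the 6 receptors, up to 3 called genes per list, comparison and direction, 7 fixed genes, and the 8 genes with a symbol nearest to a called receptor in log2 folds. Members and lists were chosen with earlier results of these data known. Other steroid receptor genes are not reported here. Alternatives were scaling by plain totals, by totals without ribosomal RNA and mitochondrial genes, by upper quartile and by DESeq2 1.42.0 size factors, other filters, prior count, interval level and fold, and thinning to the smallest library.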

Additional observations from a re-analysis of the deposited data

How the results depend on the processing

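ESR1 was called lower in CM than in IM and higher in CMT than in CM under all 10 alternatives tried. Its folds were 15.0 to 16.0 lower and 10.5 to 11.2 higher. In none was it called between CMT and IM, where its ratio ran from 0.672 to 0.701. No call of another receptor gene appeared under any alternative, and no result reversed. With a mean of 8.92 scaled CPM, ESR1 could not lose these calls through the other filters, the prior count or the looser 1.5-fold rule. No alternative reaches the spread between pigs. With a call beyond 1.5-fold, the calls over all genes were 434 higher and 529 lower with CM over IM, 570 and 404 with CMT over CM, and 356 and 223 with CMT over IM. The list genes called at 1.5-fold were 4 higher and 11 lower with CM over IM, 17 and 5 with CMT over CM, and 15 and 2 with CMT over IM. With a mean of at least 5 scaled CPM, which leaves 11149 genes, the calls were 116 higher and 155 lower for CM against IM, 99 lower for CMT against CM, and 89 higher and 43 lower for CMT against IM. The ESR1 ranks then became 19 and 28 among these fewer genes. NR0B2 in CMT against CM was no longer called with a 99% interval (1.85 to 8.77), and NR0B2, SPOP, CTXN3 and LRCOL1 were not compared at 5 CPM. No scaling moved the median log2 fold of all genes by over 0.1. No replicate could be left out, and no paired analysis was possible because each group has 1 library and the labels give no replicate numbers. Depth limits PGR and GPER1, which in CM against IM could have been called higher only from 3.87-fold and 4.38-fold, and ESR2, which had no counts.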

Other observations

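A pair of estrogen receptor targets below the level needed for a comparison, chosen after their values were seen, lay far from even. ELOVL2, a fatty acid elongase, had 10 counts in CMT, 1 in CM and 16 in IM, a ratio of 0.0547 (0.00131 to 0.352) of CM to IM and of 14.3 (2.03 to 620) of CMT to CM. MYB, a transcription factor of blood cell progenitors, had 4 counts in CMT, 16 in CM and 1 in IM, a ratio of 14.0 (2.18 to 588) of CM to IM. The intervals cover counting error only, and neither gene has a replicate check.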
